A study of Mus musculus with 12 samples.

Results

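Collagens are the triple-helical proteins of the extracellular matrix, and the genes described here are those for collagen chains together with a set of enzymes and chaperones that process, hydroxylate and crosslink them. The members were all genes whose symbol has the form of a collagen chain (Col, a type number, a and a chain number), plus Pcolce, Pcolce2, Lox, Loxl1, Loxl2, Loxl3, Plod1, Plod2, Plod3 and Serpinh1. Of 54 annotated protein-coding genes that fit this rule, 46 were listed in the deposited tables, among 14610 listed genes in all. The other 8 (Col10a1, Col13a1, Col17a1, Col1a2, Col24a1, Col6a4, Col6a5 and Col6a6) were not analysed here.

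Expression was measured by polyA RNA-seq in cultured mouse neural stem cells labelled PDGFB, a growth factor used to drive a model of diffuse intrinsic pontine glioma. One genotype, labelled H3WT, carried wild-type histone H3.3, and the other carried K27M H3.3, with a methionine in place of lysine 27. Each genotype was exposed for 12 days either to the solvent DMSO or to EPZ6438 at 3 µM, which blocks the histone methyltransferase Ezh2. The 4 groups of 3 libraries were wild-type cells in DMSO, K27M cells in DMSO, wild-type cells with EPZ6438 and K27M cells with EPZ6438. All 12 libraries came from cells grown on plates coated with poly-D-lysine and laminin, in a medium with epidermal and basic fibroblast growth factors. Whether the replicates were separate cultures is not stated, so the p-values reflect only the spread among libraries, which may be technical.

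A collagen molecule is a triple helix of chains that are hydroxylated and folded in the endoplasmic reticulum, secreted, trimmed at their ends and crosslinked outside the cell. Fibrillar collagens build fibrils, FACIT collagens attach to them, and type IV chains form the sheet-like network of basement membranes. In the brain, fibrillar collagens are largely restricted to meninges and vessels, and basement membrane collagens surround blood vessels. Ezh2 is the catalytic subunit of PRC2, which places repressive methyl marks on lysine 27 of histone H3, and the K27M histone inhibits this activity.

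Libraries held 7.91 to 24.1 M (megacounts), and those of K27M cells in DMSO were the deepest. Replicate 1 of the wild-type DMSO group was unlike the other 2, with a chi-square per gene of 23.8 and 19.8 against them, where they differed from each other by 3.07. Replicate 2 of the wild-type EPZ6438 group also lay apart, at 10 and 6.09, where the other 2 differed by 2.64. Fold changes followed the GC content of transcripts across genes, with a Spearman correlation of -0.70 between genotypes in DMSO and of -0.40, 0.27 and -0.19 for EPZ6438 in wild-type cells, EPZ6438 in K27M cells and genotypes under EPZ6438. The tested members are richer in GC (median 57.7% in the DMSO genotype comparison) than all genes (50.4%), so results were also computed after removing each library's GC trend. All 8 neural stem cell markers were detected, at a summed 7008 to 8198 CPM (read counts scaled to library size) per library.

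Compared per kilobase of transcript, Serpinh1, which encodes the collagen chaperone HSP47, was the most abundant member in every group, at 261, 220.2, 279 and 281 CPM per kb in wild-type DMSO, K27M DMSO, wild-type EPZ6438 and K27M EPZ6438 cells. In DMSO the next were the lysyl hydroxylase genes Plod3 (44) and Plod1 (34.8 CPM per kb) in wild-type cells, and Col4a5 (35.9) and Plod3 (32.8 CPM per kb) in K27M cells. Under EPZ6438 Pcolce stood second, at 54.6 CPM per kb in wild-type and 50.7 CPM per kb in K27M cells, against 4.99 and 4.2 in DMSO. Col3a1 had 0.00853 and 0.0103 CPM per kb in the DMSO groups, against 3.24 and 2.93 CPM per kb with the inhibitor.

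The comparison of EPZ6438 with DMSO, in each genotype separately, asks how the cells respond to Ezh2 inhibition. In both genotypes the largest rises among members were those of Col3a1, Col6a3 and Col14a1, which were at or near 0 counts in DMSO, and Pcolce rose more than 11-fold. Of 8 tested fibrillar genes 6 rose in each genotype, beside 21.4% of all genes in wild-type and 28.9% in K27M cells. The 6 include Col3a1, which was listed only through the inhibitor group in both genotypes and so had to differ. The type IV genes split: Col4a1 and Col4a2 rose about 2-fold, and Col4a5 and Col4a6 fell. Col12a1 and Col18a1 also fell in both.

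In wild-type cells 19 of 37 tested members rose and 6 fell at an adjusted p below 0.05, where 21.4% of all tested genes rose and 20.7% fell (42.1% either way). The members' median log2 fold change was 0.66, against 0.041 for all tested genes. In K27M cells 23 of 40 tested members rose and 7 fell, with 28.9% and 27.3% of all genes as background (56.3% either way) and medians of 0.57 and 0.0096. These comparisons share no library. Of the members that rose, 16 did so in both, which is 84.2% of the 19 and 69.6% of the 23. Over all genes 1712 rose in both, or 62.2% and 43.8% of each list. The 16 include Col3a1, Col6a3 and Col14a1, whose listing depended on the inhibitor libraries as described below. Their shared rise is thus no evidence of its own. A total of 4 members fell in both genotypes, and Col16a1 fell in wild-type and rose in K27M cells. Some members were listed only through the group where they were high: Col3a1, Col6a3, Col14a1 and Lox among the 41 listed for wild-type cells, and Col3a1, Col14a1 and Col8a1 among the 45 listed for K27M cells. Such genes had to differ, so their differences are given as a description without a p. Of them, 3 are among the 19 rises and 2 among the 23. Col6a3 and Lox in K27M cells had too few DMSO counts to be listed without the inhibitor libraries. Both are also among the 23 and are described without a p. Without the deviating wild-type DMSO replicate 1, the wild-type counts were 19 and 9, and without wild-type EPZ6438 replicate 2 they were 18 and 7.

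**Figure D1:**
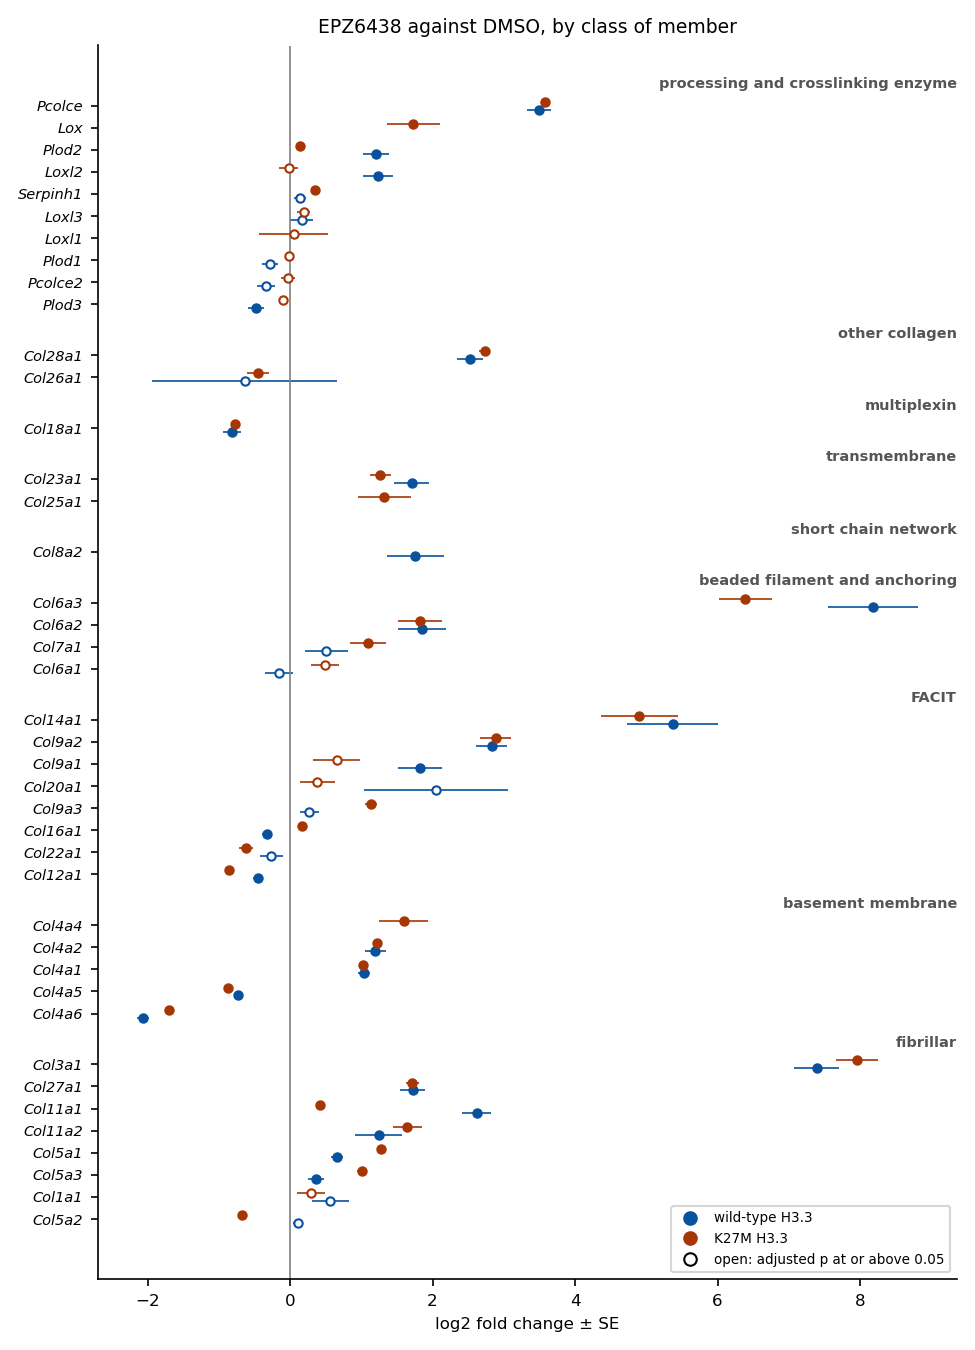
Response of every tested member to EPZ6438: log2 fold change against DMSO ± SE (horizontal axis) from 3 libraries per group, in wild-type (blue) and K27M cells (red), by class; filled circles passed an adjusted p of 0.05. Col3a1, Col6a3 and Col14a1 lie farthest to the right and Col4a6 farthest to the left; fitted values of genes at or near 0 counts in DMSO depend on the prior count.

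Col3a1 encodes the chain of type III collagen, a fibril collagen of skin and vessel walls, and lies on chr1:45311538-45349706 (GRCm38, plus strand). Its levels in the wild-type DMSO libraries were 0.155, 0 and 0.129 CPM, 4 counts in all, and with EPZ6438 they were 17, 20.1 and 19.6 CPM, or 582 counts. The log2 fold change was 7.39 (SE 0.32). The K27M DMSO libraries held 0, 0.0883 and 0.0845 CPM (4 counts) and the K27M EPZ6438 libraries 14.8, 18.8 and 15.4 CPM (622 counts; log2 fold change 7.95, SE 0.293). In both genotypes every inhibitor library lay above every DMSO library. Listing only through the inhibitor group required this, so the separation is no evidence of its own. Its neighbour Col5a2, a type V chain gene that ends 24614 bases away on the opposite strand, had 57.9 to 60.6 CPM in wild-type DMSO and 62.2 to 65.5 CPM in wild-type EPZ6438 libraries (log2 fold change 0.11, adjusted p = 0.188). In K27M cells Col5a2 fell from 107 ± 0.467 to 67.2 ± 1.65 CPM (SD, n = 3; log2 fold change -0.67, adjusted p = 3.04e-07).

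Type V and type XI chains form heterotypic molecules on which fibrils start. Col11a1, on chr3:114030540-114220718 (plus strand), rose 6.14-fold in wild-type cells, from 21.9, 13.3 and 15.5 CPM to 114, 86.7 and 112 CPM (log2 fold change 2.62, SE 0.202, adjusted p = 0.000137). K27M cells started from 80.5, 82.9 and 78.8 CPM and reached 114, 105 and 105 CPM, a 1.34-fold rise (log2 fold change 0.42, SE 0.0451, adjusted p = 3.24e-05). DMSO and inhibitor libraries did not overlap in either genotype. Col5a1 rose from 90.9 ± 6.9 to 143 ± 12.3 CPM in wild-type and from 59.1 ± 2.98 to 144 ± 9.38 CPM in K27M cells (adjusted p = 0.0014 and 6.43e-08). Col27a1, a fibrillar gene of cartilage, rose 3.3-fold and 3.29-fold, from 7.23 ± 1.88 to 24 ± 1.29 CPM and from 8.05 ± 0.232 to 26.5 ± 2.68 CPM. Col5a3 rose by 0.37 in wild-type and by 1.01 in K27M cells on the log2 scale, and Col11a2 by 1.24 and 1.64. In wild-type cells the call of Col5a3 was lost with DESeq2 and when any library other than EPZ6438 replicate 1 was left out (adjusted p up to 0.12). That of Col11a2 was lost with DESeq2 and without DMSO replicate 1 or 3 or EPZ6438 replicate 1 or 3 (adjusted p up to 0.0926). Col1a1, the main chain of type I collagen, had 1.94 to 2.59 CPM in wild-type DMSO and 2.38 to 4.06 CPM in wild-type EPZ6438 libraries (log2 fold change 0.57, adjusted p = 0.115), and its log2 fold change in K27M cells was 0.29 (adjusted p = 0.234).

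**Figure D2:**
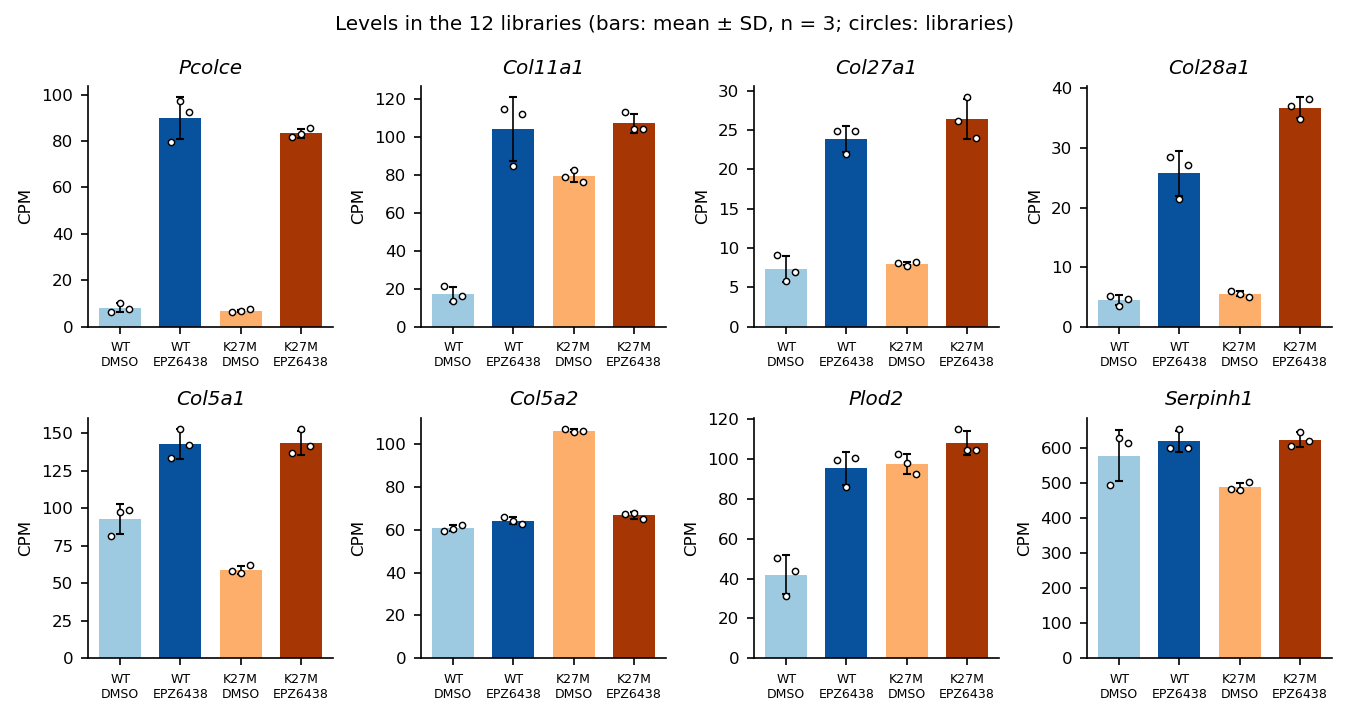
Levels of 8 members in the 12 libraries of one joint normalization, in CPM; bars are means ± SD of n = 3 and circles are libraries. Pcolce, Col27a1 and Col28a1 are high in both EPZ6438 groups, and Col11a1 and Plod2 have their lowest bar in wild-type DMSO cells.

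Type IV collagen is the main collagen of basement membranes. Chains from Col4a1 and Col4a2 make the widespread network, and those from Col4a5 join with Col4a6, or with Col4a3 and Col4a4, in other networks. In wild-type cells Col4a1 rose from 77.1, 85.4 and 87.4 CPM to 161, 188 and 164 CPM (2.05-fold, log2 fold change 1.04, SE 0.085, adjusted p = 0.000178). Col4a2 rose from 27.7, 34.3 and 35.4 CPM to 62, 85.9 and 75.2 CPM (2.29-fold, adjusted p = 0.000974). The groups did not overlap for either gene. In K27M cells the rises were 2.03-fold and 2.34-fold (adjusted p = 5.42e-08 and 1.01e-07). Col4a6 fell 4.18-fold in wild-type cells, from 83.3, 89.99 and 85.2 CPM to 18.4, 22.2 and 21 CPM (log2 fold change -2.06, SE 0.0887, adjusted p = 1.71e-05). The fall in K27M cells was 3.24-fold, from 75.6, 76.7 and 78.9 CPM to 24.4, 23.8 and 23.1 CPM (adjusted p = 3.05e-09). Again no library of one group overlapped the other. Col4a5, the chain gene mutated in X-linked Alport syndrome, fell from 201 ± 3.32 to 121 ± 3.09 CPM and from 224 ± 3.08 to 123 ± 1.37 CPM (log2 fold changes -0.73 and -0.87, adjusted p = 8.25e-05 and 1.62e-08). Per kilobase, Col4a5 exceeded Col4a1 in DMSO (32.9 against 12.8 CPM per kb in wild-type and 35.9 against 11 CPM per kb in K27M cells). With EPZ6438 the order was the opposite, at 19.4 against 25.7 and 19.7 against 22.3 CPM per kb. Col4a4 rose 3.02-fold in K27M cells, from 0.443 ± 0.0587 to 1.32 ± 0.438 CPM, and was too low for the test in wild-type cells (15 and 34 counts).

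**Figure D3:**
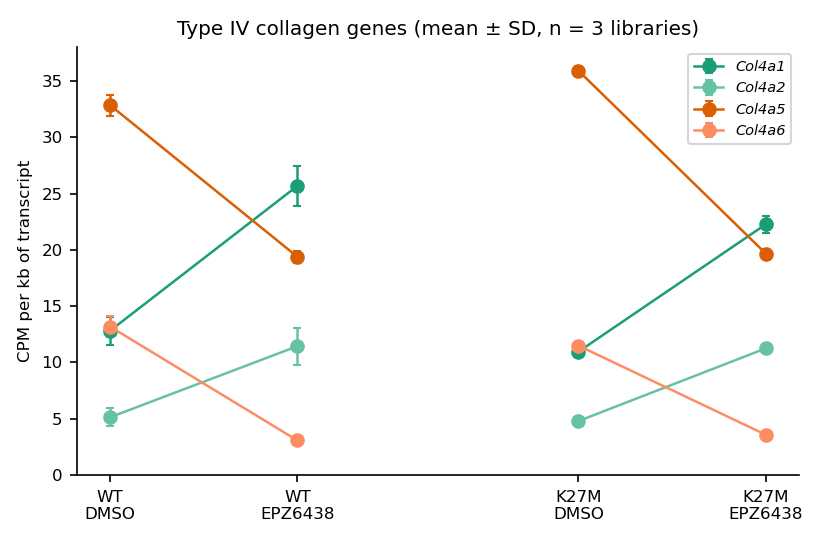
Type IV collagen genes in CPM per kb of transcript, mean ± SD of n = 3 libraries, for DMSO and EPZ6438 in wild-type (left) and K27M cells (right). Col4a1 and Col4a2 lie higher, and Col4a5 and Col4a6 lower, with EPZ6438 in both genotypes.

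These type IV genes lie in head-to-head pairs: the annotated starts of Col4a1 and Col4a2 are 21 bases apart on chromosome 8, and those of Col4a5 and Col4a6 are 1309 bases apart on chromosome X. Within each of these pairs both genes moved in the same direction with the inhibitor. RefSeq promoter windows of 300 bases (250 before and 50 after the start, GRCm38.p6) matched 32 of the 46 members. The windows of 4 members are shown because these genes had large or opposite responses, 5′ to 3′ on the gene's strand, with each CG dinucleotide in capitals. They lie at chr1:45311288-45311587 (plus strand, Col3a1), chr3:114030290-114030589 (plus, Col11a1), chr8:11312777-11313076 (minus, Col4a1) and chrX:141474027-141474326 (minus, Col4a6).
Col3a1: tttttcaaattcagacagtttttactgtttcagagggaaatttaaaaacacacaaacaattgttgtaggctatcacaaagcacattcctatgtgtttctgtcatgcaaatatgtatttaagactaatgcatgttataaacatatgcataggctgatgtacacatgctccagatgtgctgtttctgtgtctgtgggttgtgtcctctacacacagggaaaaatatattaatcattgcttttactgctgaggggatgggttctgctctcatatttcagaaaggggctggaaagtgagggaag
Col11a1: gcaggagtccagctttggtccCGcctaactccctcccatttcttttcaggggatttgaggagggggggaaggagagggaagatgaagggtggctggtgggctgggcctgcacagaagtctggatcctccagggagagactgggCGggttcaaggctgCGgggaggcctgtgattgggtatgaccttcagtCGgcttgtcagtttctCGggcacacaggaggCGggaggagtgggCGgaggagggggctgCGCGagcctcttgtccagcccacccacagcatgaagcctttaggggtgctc
Col4a1: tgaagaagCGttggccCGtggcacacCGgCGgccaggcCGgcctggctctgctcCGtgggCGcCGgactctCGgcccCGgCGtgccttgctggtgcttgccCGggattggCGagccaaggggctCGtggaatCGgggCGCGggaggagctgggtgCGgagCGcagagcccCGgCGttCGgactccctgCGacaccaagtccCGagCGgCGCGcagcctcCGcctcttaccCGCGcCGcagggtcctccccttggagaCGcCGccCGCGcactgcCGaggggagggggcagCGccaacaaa
Col4a6: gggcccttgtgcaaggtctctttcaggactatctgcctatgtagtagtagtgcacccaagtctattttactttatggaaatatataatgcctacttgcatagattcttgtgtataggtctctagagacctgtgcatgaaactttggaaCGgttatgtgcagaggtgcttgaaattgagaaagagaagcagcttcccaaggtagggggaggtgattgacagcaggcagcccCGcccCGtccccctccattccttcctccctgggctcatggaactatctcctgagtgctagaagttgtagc
The Col3a1 window holds 0 CG dinucleotides and that of Col4a6 holds 3, while those of Col11a1 and Col4a1 hold 9 and 37. Of 32851 RefSeq promoter windows, 94.4% hold fewer than that of Col4a1. The median is 7 over all windows and 15 over the 32 member windows. On either strand GGGCGG, whose CG also counts in those numbers, occurred in 22 member windows (68.8%, against 35.7% of all windows). CCAAT occurred in 10 (31.2% against 37.4%), and TATAAA in 3, among them that of Col3a1 (9.38% against 13.6%).

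Of 8 tested FACIT collagen genes, 3 rose and 2 fell in wild-type cells, and 4 rose and 2 fell in K27M cells. Over all genes 21.4% rose and 20.7% fell in wild-type cells, and 28.9% rose and 27.3% fell in K27M cells. The FACIT rises include Col14a1, which was listed only through the inhibitor group in both genotypes and so had to differ. Col9a2, a chain of cartilage type IX collagen, rose from 0.93, 1.03 and 1.55 CPM to 8.26, 8.78 and 8.5 CPM in wild-type cells (7.1-fold, adjusted p = 0.000136) and 7.4-fold in K27M cells (adjusted p = 2.75e-06). Its partner Col9a3 had 15.2 to 20.7 CPM in wild-type DMSO and 20.03 to 23.3 CPM in wild-type EPZ6438 libraries, which overlapped (log2 fold change 0.27, adjusted p = 0.143). In K27M cells Col9a3 rose from 14.9, 12.3 and 15.3 CPM to 30.3, 31.8 and 31.6 CPM (2.2-fold, adjusted p = 2.3e-06). Col14a1, a fibril regulator of soft tissue, went from 2 to 79 counts over the 3 wild-type libraries per group, a ratio per library size of 50.8 with a counting interval of 13.6 to 427. In K27M cells Col14a1 went from 3 to 58 counts (ratio 34.4, counting interval 11.2 to 172). Col12a1 fell from 74.6 ± 5.01 to 54.5 ± 1.77 CPM in wild-type cells and from 123 ± 0.416 to 67.6 ± 2.49 CPM in K27M cells (adjusted p = 0.00316 and 7.89e-08). Col22a1 fell 1.54-fold in K27M cells and had a log2 fold change of -0.26 in wild-type cells (adjusted p = 0.212). The opposite calls of Col16a1 were small (log2 fold change -0.32 in wild-type and 0.17 in K27M cells). Neither held after the GC correction, at -0.14 and -0.055 (adjusted p = 0.0794 and 0.269). The wild-type call was also lost without DMSO replicate 2 or 3 or EPZ6438 replicate 3 (adjusted p from 0.0537), and the K27M call without DMSO replicate 1 or EPZ6438 replicate 2 or 3 (adjusted p from 0.0627) or in the joint fit (0.0635).

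Type VI collagen forms beaded filaments from the chains of Col6a1, Col6a2 and Col6a3. Col6a3 had 0 counts in the wild-type DMSO libraries and 97 counts with EPZ6438 (2.5, 3.61 and 3.17 CPM), which is at least 41.6-fold higher against a floor of 3 counts over the DMSO group. K27M levels were 0, 0.0883 and 0.211 CPM in DMSO (7 counts). With EPZ6438 they were 10.1, 7.81 and 9.71 CPM (353 counts, log2 fold change 6.39, SE 0.368). Col6a2 rose 3.61-fold and 3.55-fold, from 0.778 ± 0.295 to 2.74 ± 0.424 CPM and from 0.873 ± 0.362 to 3.13 ± 0.53 CPM. Col6a1 had 4.73 to 6.17 CPM in wild-type DMSO and 3.88 to 5.83 CPM in wild-type EPZ6438 libraries (adjusted p = 0.546), and 3.3 to 4.03 against 3.97 to 6.53 CPM in K27M cells (adjusted p = 0.0517). Col7a1, the collagen of anchoring fibrils, rose 2.14-fold in K27M cells, and Col23a1, a transmembrane collagen, rose 3.26-fold in wild-type and 2.41-fold in K27M cells. Col28a1, a collagen described in peripheral nerve, rose from 5.35, 3.37 and 4.59 CPM to 28.3, 22.1 and 27.1 CPM in wild-type cells (5.74-fold, adjusted p = 0.000115). In K27M cells Col28a1 rose from 5.93, 5.56 and 5.11 CPM to 36.8, 35.1 and 38.4 CPM (6.64-fold, adjusted p = 3.71e-09). Col18a1, whose product releases the angiogenesis inhibitor endostatin, fell from 33.2 ± 3.75 to 18.8 ± 2.32 CPM and from 42.2 ± 0.704 to 24.7 ± 0.611 CPM (adjusted p = 0.00291 and 8.95e-07).

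Among the processing enzymes and chaperones, 3 rose and 1 fell of 8 tested in wild-type cells, and 4 of 10 rose in K27M cells. The shares of all genes were 21.4% and 20.7% in wild-type cells, and 28.9% rose in K27M cells. The 4 include Lox, whose listing in K27M cells depended on the inhibitor libraries. Pcolce, an extracellular enhancer of the proteinase that removes the procollagen C-propeptide, lies on chr5:137605103-137613784 (minus strand). It rose from 6.67, 10.01 and 7.44 CPM to 79, 98.8 and 91.3 CPM in wild-type cells (11.2-fold, log2 fold change 3.49, SE 0.165, adjusted p = 2.22e-05). The K27M libraries went from 6.39, 6.89 and 7.52 CPM to 80.9, 83.7 and 85.9 CPM (12-fold, log2 fold change 3.58, SE 0.0631, adjusted p = 3.2e-10). Its relative Pcolce2 did not pass in wild-type cells, at -0.34 on the log2 scale (adjusted p = 0.0621), nor in K27M cells, at -0.028 (adjusted p = 0.832). Plod2, the lysyl hydroxylase of collagen telopeptides, rose in wild-type cells from 51.6, 29.8 and 42.7 CPM to 98.6, 88 and 100.4 CPM (2.3-fold, adjusted p = 0.00258). In K27M cells Plod2 stood at 92.9 to 102 CPM in DMSO and 105 to 114 CPM with EPZ6438 (1.11-fold, adjusted p = 0.0302), a call lost without DMSO replicate 2 or 3 or EPZ6438 replicate 1 (adjusted p 0.0766 to 0.111), with DESeq2 (0.0559) and in the joint fit of all libraries (0.395). Loxl2, a lysyl oxidase that acts on type IV collagen, rose 2.35-fold in wild-type cells, from 2.36 ± 0.433 to 5.47 ± 0.722 CPM (adjusted p = 0.00424). K27M cells had 5.78 ± 0.193 CPM of Loxl2 in DMSO and 5.73 ± 0.825 CPM with EPZ6438 (adjusted p = 0.899). Lox, the founding lysyl oxidase, went from 1 to 30 counts in wild-type cells and was too low there for the test; it was listed there only through the inhibitor group (ratio 38.6, counting interval 6.41 to 1574). In K27M cells Lox rose 3.32-fold, given without a p because its listing there depended on the inhibitor libraries. The rise was not called in the joint fit. Plod3 fell 1.39-fold in wild-type cells (adjusted p = 0.0162), a call lost without DMSO replicate 3 or EPZ6438 replicate 1 or 3 (adjusted p up to 0.0674). Serpinh1 rose 1.27-fold in K27M cells, from 484, 483 and 505 CPM to 601, 651 and 623 CPM (adjusted p = 1.98e-05). In wild-type cells its groups overlapped, at 505 to 602 and 596 to 671 CPM (log2 fold change 0.13, adjusted p = 0.235). After the GC correction Serpinh1 (0.32, adjusted p = 0.000665), Col1a1 (0.74, 0.03) and Col9a3 (0.43, 0.0403) were called higher and Pcolce2 (-0.49, 0.0293) lower in wild-type cells, and Plod3 (-0.24, 0.000141) and Plod1 (-0.12, 0.0136) lower in K27M cells.

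Some markers of other collagen-making cells, and of the neural lineage, moved with the inhibitor. Of 10 fibroblast and mesenchymal markers other than collagens, 7 were listed for all libraries, and their summed level was 113 to 118 CPM in wild-type DMSO, 143 to 149 CPM in K27M DMSO, 175 to 186 CPM in wild-type EPZ6438 and 178 to 193 CPM in K27M EPZ6438 libraries. With EPZ6438 5 of 7 tested rose in wild-type and 6 of 8 in K27M cells, beside 21.4% and 28.9% of all genes. Of these, Bgn, Dcn and Twist1 in wild-type and Dcn, Lum and Twist1 in K27M cells were listed only through the inhibitor group. The small proteoglycan gene Dcn was at 0 in both DMSO groups, and Bgn at 0 in wild-type DMSO. Mural markers (5 of 6 listed) summed to 2.73 to 4.14 CPM in DMSO and 8.77 to 9.95 CPM in EPZ6438 libraries. Of 4 tested, Pdgfrb and Rgs5 rose in both genotypes, while Acta2 fell in K27M cells (1.27 ± 0.23 to 0.296 ± 0.0813 CPM, adjusted p = 0.000917) and Tagln did not pass in either. Of the 6 endothelial markers only Kdr was listed for all libraries, at 6.07 to 8.34 CPM in DMSO and 14 to 16.9 CPM in EPZ6438 libraries. Summed oligodendrocyte precursor markers (5 of 5 listed) went from 3246 to 3989 CPM in DMSO to 1727 to 1960.1 CPM with EPZ6438 in wild-type cells, and from 2639 to 2847 CPM to 1803 to 1925 CPM in K27M cells. Of 8 neural stem cell markers 4 fell in each genotype, beside 20.7% of all genes in wild-type and 27.3% in K27M cells. Hes5, Msi1 and Sox2 fell in both, and Nes rose in K27M cells. Their summed level was 7754 to 8198 CPM in wild-type DMSO and 7099 to 7245 CPM in wild-type EPZ6438 libraries. In K27M cells the sum was 7008 to 7165 CPM in DMSO and 7150 to 7272 CPM with EPZ6438. Of the 5 precursor markers 2 fell in wild-type cells, and 3 fell and 1 rose in K27M cells. Chondrocyte markers (3 of 6 listed) summed to 177 to 204 CPM in wild-type DMSO and 183 to 202 CPM in wild-type EPZ6438 libraries. In K27M cells they summed to 179 to 190 CPM in DMSO and 178 to 186 CPM with EPZ6438. Of 2 tested, Acan rose in both genotypes and Sox9 passed in neither. The part of these markers in the collagen results was not tested, and in bulk libraries fewer cells of a type and less RNA per cell cannot be told apart.

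The comparison of genotypes in DMSO asks how K27M cells differ without the inhibitor. Col11a1, Loxl2 and Plod2 were more than 2-fold higher in K27M cells, and Col5a2, Col22a1 and Col12a1 were 1.65-fold to 1.8-fold higher. Col5a1, Col6a1, Col16a1 and Plod1 were 1.41-fold to 1.53-fold lower. The count of members called, 8 higher and 10 lower of 34 tested, was near the background, in which 29.8% of all genes were higher and 30.4% lower (60.1% either way). Their median log2 fold change was 0.028, against -0.0035 for all genes. After the GC correction the members' median was 0.28, against 0.00085 for all genes.

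Col11a1 was 4.73-fold higher, at 78.4, 82.1 and 75.9 CPM in K27M against 21.5, 13.1 and 15.2 CPM in wild-type libraries (log2 fold change 2.24, SE 0.169, adjusted p = 0.000558). Loxl2 stood at 5.75, 5.9 and 5.48 against 2.43, 2.67 and 1.84 CPM (2.49-fold, adjusted p = 0.00174). Plod2 stood at 102, 97.1 and 91.4 against 50.6, 29.3 and 42 CPM (2.37-fold, adjusted p = 0.00286). For none of these 3 genes did the groups overlap. Col5a2 was 1.8-fold higher, at 106 ± 0.626 against 58.7 ± 1.6 CPM (adjusted p = 0.000262), and Col22a1 1.76-fold higher, at 11.3 ± 0.0361 against 6.41 ± 0.889 CPM (adjusted p = 0.00237). Col12a1 was 1.65-fold higher, at 121 ± 0.817 against 73.4 ± 4.85 CPM (adjusted p = 0.00059). Of the chains that join Col5a2 in type V collagen, Col5a1 was 1.53-fold lower, at 58.5 ± 2.69 against 89.3 ± 6.84 CPM (adjusted p = 0.00163), and Col5a3 1.16-fold lower (adjusted p = 0.0283). Col6a1 fell by 0.55, Col16a1 by 0.52, Plod1 by 0.50, Plod3 by 0.38 and Loxl3 by 0.34 on the log2 scale. Col4a5 rose by 0.17 and Col18a1 by 0.36, the latter a call lost without K27M DMSO replicate 1 or 2 (adjusted p up to 0.0547). Col3a1 was not listed for this pair of groups. Pcolce had 5.78, 2.39 and 6.86 CPM in wild-type and 5.01, 5.29 and 7.06 CPM in K27M libraries. The groups overlapped (log2 fold change 0.18, adjusted p = 0.675). For this pair 3 of 8 Pcolce transcripts were listed, against 5 for EPZ6438 in wild-type cells. These levels thus cover only part of the gene.

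After the GC correction, 12 of the 34 tested members were called higher and 4 lower. Of all 13129 tested genes, 2689 were then higher and 2925 lower. Col4a1 (log2 fold change -0.18 before), Col5a3 (-0.21), Col4a6 (-0.15) and Serpinh1 (-0.20) then had 0.12, 0.17, 0.047 and 0.083. Of these Col4a1 and Col5a3 turned from called lower to called higher (adjusted p = 0.0349 and 0.0313), the other 2 passed in neither direction, and Plod3, Col6a1 and Loxl3 no longer passed. All 8 members called higher kept that call, with Col11a1 at 2.13, Plod2 at 0.66 and Col18a1 at 0.71. Col5a1, Plod1 and Col16a1 stayed lower, at -0.30, -0.22 and -0.13. The lower calls also depended on the libraries: 10 were lower without wild-type DMSO replicate 1, 5 without wild-type DMSO replicate 2 or K27M DMSO replicate 1, and 4 without wild-type DMSO replicate 3 or K27M DMSO replicate 2 or 3. Without any one library other than wild-type DMSO replicate 1, the calls of Col5a3, Loxl3, Col4a1, Col4a6 and Serpinh1 were lost. The higher calls numbered 7 to 12 over these fits, with 12 without wild-type DMSO replicate 1.

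**Figure D4:**
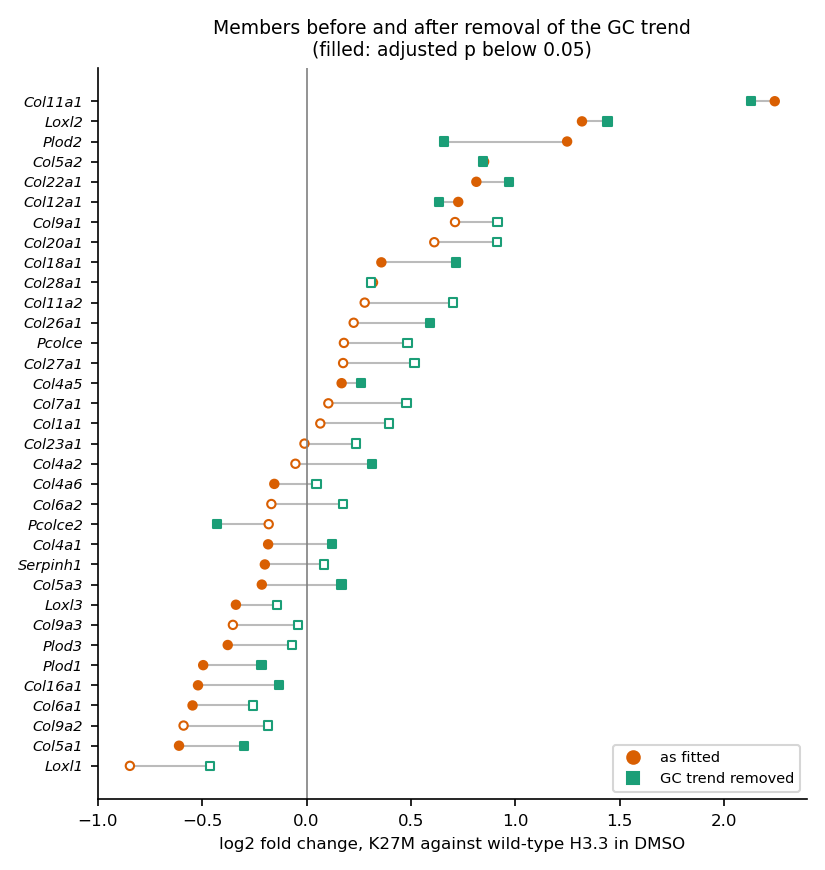
Members in K27M against wild-type cells in DMSO: log2 fold change as fitted (circles) and after removal of each library's GC trend (squares), filled where the adjusted p was below 0.05. Col11a1 moves from 2.24 to 2.13 and Col4a1 from -0.18 to 0.12.

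Whether the genotypes respond differently to EPZ6438 was tested as an interaction over the 12 libraries, which shares its libraries with the other comparisons. Col11a1, Loxl2 and Plod2 responded less in K27M than in wild-type cells, and Col9a3, Col5a3 and Col5a1 responded more. Of 41 tested members 6 had a more positive and 5 a more negative response in K27M cells, beside a background of 20.2% and 16.1% of all genes (36.3% either way). The GC correction gave 3 and 11, where 1459 and 1430 of all 13300 tested genes then passed. Leaving out wild-type DMSO replicate 1 gave 9 and 7. Members called only after the correction included Col4a1 (-0.33) and Col4a2 (-0.34). The difference for Col11a1 was -2.16 on the log2 scale (SE 0.198, adjusted p = 4.53e-05), where the separate responses were 2.62 and 0.42. For Loxl2 it was -1.22 (SE 0.231, adjusted p = 0.00302) and for Plod2 -1.03 (SE 0.188, adjusted p = 0.00249; -0.55 after the GC correction). Col5a2 had -0.75 (adjusted p = 2.42e-05) and Col12a1 -0.37 (adjusted p = 0.00391). Col9a3 had the most positive difference among those called, at 0.91 (SE 0.146, adjusted p = 0.0013), followed by Col5a3 with 0.69 (adjusted p = 0.00362), Col5a1 with 0.66 (adjusted p = 0.00206) and Col16a1 with 0.53 (adjusted p = 0.00285). After the GC correction Col9a3 had 0.56 and Col5a1 0.31, and both still passed. The differences of Plod3 and Col4a6, 0.43 and 0.41, then missed the threshold (adjusted p = 0.485 and 0.0725), as did those of Col16a1 (0.312) and Col5a3 (0.0565). The call of Plod3 was also lost when any of 8 libraries was left out: wild-type DMSO replicate 2 or 3, K27M DMSO replicate 1 or 2, wild-type EPZ6438 replicate 1 or 3, or K27M EPZ6438 replicate 2 or 3 (adjusted p from 0.0862). The differences for Col3a1 (-0.30, SE 0.985) and Pcolce (0.12, SE 0.183) did not pass (adjusted p = 0.847 and 0.631).

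Under EPZ6438 the genotypes differed in few members. Col6a3, Col9a3 and Col12a1 were higher in K27M cells. Those were the 3 calls among 41 tested members, where 0.567% of all genes were higher and 1.23% lower (1.79% either way). Col6a3 had 10.3, 7.95 and 9.89 CPM in K27M and 3.19, 4.78 and 5.2 CPM in wild-type libraries (2.11-fold, log2 fold change 1.08, SE 0.195, adjusted p = 0.0405). Col9a3 had 31.7 ± 0.9 against 22.1 ± 1.48 CPM (1.43-fold, adjusted p = 0.0221), and Col12a1 68.6 ± 2.47 against 55.2 ± 2.35 CPM (1.25-fold, adjusted p = 0.0413). The groups did not overlap for these genes. The edgeR test called 0 members lower (6 at an unadjusted p under 0.05; 0 with DESeq2). The calls depended on single libraries: 1 member was higher without wild-type EPZ6438 replicate 1, 3 without wild-type EPZ6438 replicate 2 (of which 1 was among the original 3), and 0 without wild-type EPZ6438 replicate 3 or without any one of the K27M EPZ6438 replicates. Col6a3 and Col12a1 lost their calls whichever of the 6 libraries was left out (adjusted p up to 0.179 and 0.178), and Col6a3 also in the joint fit (0.116). Col11a1 stood at 117, 88.3 and 115 CPM in wild-type and 116, 107 and 107 CPM in K27M libraries (log2 fold change 0.049, SE 0.105, adjusted p = 0.846). Col3a1 stood at 18.1, 20.4 and 20 against 16.1, 21 and 17.6 CPM (log2 fold change -0.11, SE 0.115, adjusted p = 0.681). Pcolce had a log2 fold change of -0.11 (SE 0.0811, adjusted p = 0.553). For each of these 3 genes the groups overlapped.

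**Figure D5:**
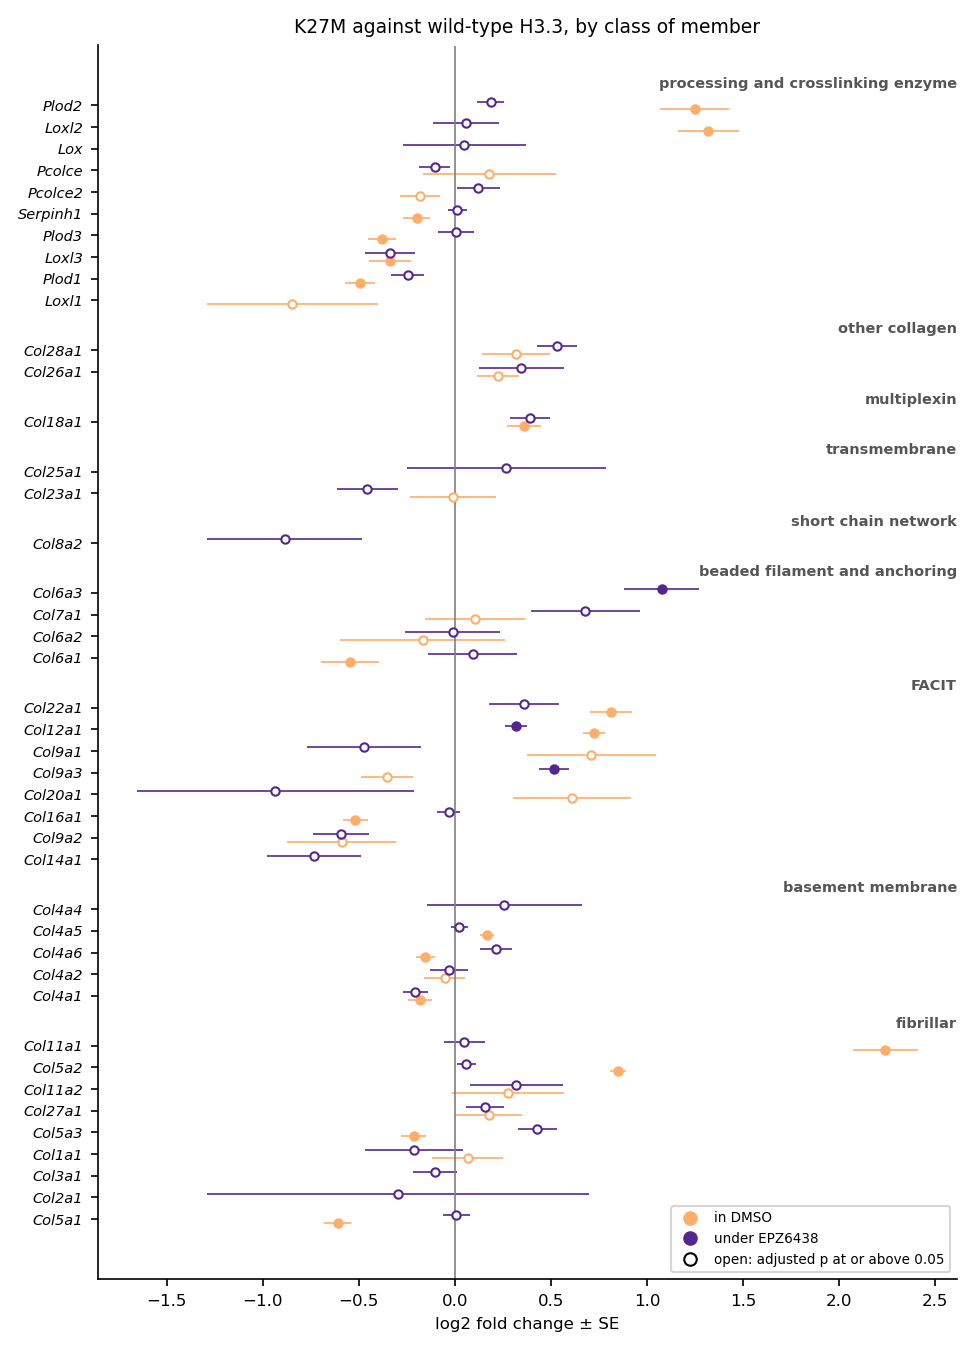
K27M against wild-type cells: log2 fold change ± SE from 3 libraries per group, in DMSO (orange) and under EPZ6438 (purple), by class; filled circles passed an adjusted p of 0.05. Col11a1, Loxl2 and Plod2 lie far to the right in DMSO (2.24, 1.32 and 1.25) and near 0 under EPZ6438 (0.049, 0.057 and 0.19).

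Members too low for a test in the comparison concerned are given as counts over 3 libraries. Col8a1, a short-chain network collagen, held 4 counts in wild-type DMSO libraries, 46 in K27M DMSO libraries and 6 in K27M EPZ6438 libraries. Col19a1, a FACIT gene, had 3 and 22 counts in wild-type and K27M DMSO libraries and 14 in K27M EPZ6438 libraries. In the DMSO genotype comparison Col8a1 and Col19a1 were listed only through the K27M group, where they were higher, so the difference is no evidence of its own. Loxl1, an oxidase of elastic fibres, had 38 counts in wild-type DMSO and 7 in wild-type EPZ6438 libraries; where it was tested, its log2 fold change was -0.85 between genotypes in DMSO (adjusted p = 0.14) and 0.049 with EPZ6438 in K27M cells (adjusted p = 0.94). Col2a1, the cartilage fibril collagen, had 21 and 30 counts in K27M DMSO and K27M EPZ6438 libraries, and Col4a3 had 11 and 17. Col15a1, a multiplexin, had 16 and 21 counts in wild-type and K27M EPZ6438 libraries.

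Other genes of the collagen pathway, from a list of prolyl hydroxylases, procollagen proteinases, other modifying enzymes, secretion factors, receptors and breakdown genes, moved in both directions. With EPZ6438 11 rose and 11 fell of 32 tested in wild-type cells, and 13 rose and 5 fell of 35 in K27M cells, where 42.1% and 56.3% of all genes were called either way. Ddr2, a receptor tyrosine kinase for fibrillar collagen, rose 10.1-fold in wild-type (adjusted p = 0.00128) and 2.57-fold in K27M cells (adjusted p = 1.42e-06). The integrin subunit gene Itga1 rose 4.06-fold and 2.63-fold, the crosslinking oxidase gene Loxl4 8.21-fold and 2.46-fold, and the procollagen N-proteinase gene Adamts2 3.35-fold and 2.91-fold in wild-type and K27M cells. In DMSO 13 were higher and 12 lower in K27M cells of 34 tested (60.1% of all genes either way), among them Ddr2 (3.72-fold higher), Itga2 (2.63-fold higher) and Adamts3 (2.57-fold higher). The response of Ddr2, Adamts3 and Itga2 differed between genotypes by -1.98, -1.51 and -1.31 on the log2 scale (adjusted p = 0.00538, 9.79e-06 and 0.000954). Under EPZ6438 1 of 34 differed between genotypes, Adamts14 (1.28-fold higher in K27M cells, adjusted p = 0.0381).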

How the data were processed

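Per the labels' protocols, libraries were prepared from polyA RNA with a TruSeq kit and run on a HiSeq2500. The submitters' processing notes name kallisto, sleuth and the builds GRCm38 and mm10; no version, annotation or strand setting was found there. The authors deposited 4 tables of 6 libraries each, with estimated counts per transcript that they had divided by a size factor per library, found from the spacing of low values. The p-values and q-values and the natural log effects that the authors deposited were not used. A transcript is listed only where 3 or more of a table's libraries hold 5 counts or more.

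The size factors were undone, and values were summed per gene and rounded; transcripts with no gene name, 0.45 to 0.58% of counts, stayed out. Groups were compared pairwise, within the 6 libraries of a table, by edgeR 4.0.16 run in R 4.3.3 (filterByExpr, TMM, glmQLFit, glmQLFTest; two-sided), with Benjamini-Hochberg adjustment over all tested genes and a call at an adjusted p below 0.05. Each adjusted p comes from this test unless the interaction, DESeq2, the GC correction, the joint fit or a left-out library is named. The interaction used 37407 transcripts with values in all 12 libraries. SE was derived from the fold change and its F statistic. CPM were normalized within each fit, and tables list different transcripts of a gene, so the level of a group differs between comparisons. Ratios of low counts have exact 95% intervals, which cover counting error only. Gene positions are from GENCODE M21 (GRCm38). The exons of Col3a1, Col4a3, Col5a1, Col9a3, Loxl2, Loxl3, Pcolce, Plod2 and Plod3 overlap other genes for 141, 563, 212, 234, 308, 535, 224, 346 and 538 bases, summed over those genes. Reads there cannot be told apart without strand. For Col3a1, and for part of the overlap of Loxl2, Pcolce and Plod3, the other gene lies on the same strand, where strand would not separate them. The procedure was tested on simulated data.

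The members, gene lists and tests were chosen with earlier results of these data known. The rule names Col11a1, Col3a1 and Pcolce in each comparison, up to 8 called members with the largest rise and fall, the most abundant of each class and up to 3 pathway genes. Alternatives were DESeq2 1.42.0, no filter, a replicate block, removal of the GC trend, a joint fit, the deposited values as they stand, and each library left out.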

Additional observations from a re-analysis of the deposited data

Results flagged for a closer look

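The response to EPZ6438 differed between K27M and wild-type cells in 11 of 41 tested members by the interaction test. Over all tested genes it differed in 36.3%. On the log2 scale, as K27M minus wild-type response, the differences were -2.16 for Col11a1, -1.22 for Loxl2, -1.03 for Plod2, -0.75 for Col5a2 and -0.37 for Col12a1. They were 0.91 for Col9a3, 0.69 for Col5a3, 0.66 for Col5a1, 0.53 for Col16a1, 0.43 for Plod3 and 0.41 for Col4a6. After the GC correction Col5a3, Col16a1, Plod3 and Col4a6 no longer passed, and the other 7 still did.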

How the results depend on the processing

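Over all alternatives 1057 single-member values kept their direction and side of the threshold, 108 kept the direction and lost the call, and 15 reversed. These values cover only members called by edgeR in the comparison concerned, plus Col11a1, Col3a1 and Pcolce. Calls gained by other members are not counted. The count lower in K27M DMSO cells (10) was 5 with DESeq2 and 4 after the GC correction, and 4 to 10 with 1 library left out. The count lower with EPZ6438 in wild-type cells (6) was 10 in the joint fit (4 to 9 with 1 library left out). Under EPZ6438 the count higher in K27M cells (3) was 5 with DESeq2, 5 with the replicate block and 6 after the GC correction (0 to 3 with 1 library left out), and the count lower (0) was 1 with the block and 2 after the GC correction. After that correction 318 of all 13060 genes tested under EPZ6438 were higher in K27M cells and 429 lower. For the interaction, removal of the GC trend gave 3 more positive and 11 more negative members, beside 1459 and 1430 of 13300 genes. The cause was not tested. Replicate numbers did not pair the libraries in every comparison. Same-numbered libraries had correlations of deviations from -0.05 to 0.27, over 0.1 in 4 of 12 pairs. In the 4 comparisons 3, 4, 0 and 4 of 6 libraries correlated best with their own number. The replicate block gave 8 higher and 7 lower, 19 and 7, 23 and 7, 5 and 1, and for the interaction 9 and 5.

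After the GC correction these DMSO genotype values changed sign: Col4a1 to 0.12, Col4a6 to 0.047, Col5a3 to 0.17 and Serpinh1 to 0.083; so did Col16a1 with EPZ6438 in K27M cells (-0.055) and the interaction of Pcolce (-0.25). Uncalled values that changed sign were those of Pcolce between genotypes in DMSO (-0.23 in the joint fit, and -0.13 to 0.48 with 1 library left out) and of Col11a1 under EPZ6438 (-0.077 without wild-type EPZ6438 replicate 2). The interaction of Pcolce was -0.095 on transcripts listed in all 4 tables and -0.096 to 0.18 with 1 library left out. That of Col3a1 ranged from -0.82 to 0.071. DMSO counts of 0 to 7 limit the folds of Col3a1, Col6a3 and Col14a1.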
